A study of Arabidopsis thaliana with 12 samples.

Results

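The genes described here were extreme in 1 of 4 groups of Arabidopsis thaliana RNA libraries: their mean level in salt-treated camta6-5 was at least 2 times the highest, or at most 1/2 of the lowest, mean of the other 3 groups. Levels are CPM, each gene's count over the total count of its library on the usual common scale. The members were chosen by these measured values, and the highest of the 4 group means had to reach 5 CPM. Of the 33602 genes in the table, 14178 reached that level, and 13992 remained once genes whose names contain CYP, GST, UGT, WRKY or NAC were set aside. Among these 13992 genes, 18 met the rule. The high set held 7 genes (0.05%) and the low set 11 (0.0786%). A further low gene, CYP94B3, was set aside by its name. Because the rule itself ranked the camta6-5 NaCl means, the differences between camta6-5 NaCl and the other groups are described below without a test.

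The camta6-5 line carries an allele of CAMTA6, a gene for a calmodulin-binding transcription activator, a class of factors that respond to calcium signals and are known to bind CGCG-containing DNA. Salt delays or blocks germination, in part through abscisic acid, and the seed then keeps its reserves and its late embryogenesis programme for longer. The study asked how the mutant germinates in salt.

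The 4 groups, of 3 libraries each, were camta6-5 on medium with 200 mM NaCl, wild-type Col-0 on the same salt medium, camta6-5 on control medium with 0 mM NaCl, and Col-0 on control medium. All had been cold stratified, sown on agar with 0.25 X MS salts and treated for 16 hours, and the material is labelled as pre-germinated seedlings. The labels name 1 mutant allele, without its lesion or a rescued line, and do not say whether replicates came from separate plates or seed lots, so p-values measure only the spread between these samples. The names camta6-5 NaCl and camta6-5 control refer to the libraries labelled so. CAMTA6 counts were not lower in them, and in control medium they were higher than in Col-0 (log2 fold change 0.96 ± 0.131, SE; edgeR adjusted p = 0.00661). They were 37.8, 41.0 and 52.9 CPM in camta6-5 NaCl, 34.3, 32.2 and 28.6 CPM in Col-0 NaCl, 35.03, 30.8 and 35.3 CPM in camta6-5 control, and 14.6, 19.1 and 20.21 CPM in Col-0 control. A count over the whole gene cannot show whether a functional transcript was made.

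Library totals ran between 29473212 and 35450685 counts. A fixed list of 17 seed storage, oil body and late embryogenesis genes summed to 13887 to 23418 CPM in camta6-5 NaCl and 16732 to 19665 CPM in Col-0 NaCl, against 850 to 1646 CPM in camta6-5 control and 831 to 1255 CPM in Col-0 control. A list of 8 endosperm genes summed to 291 to 327 CPM in camta6-5 NaCl, 383 to 399 CPM in Col-0 NaCl, 249 to 282 CPM in camta6-5 control and 272 to 346 CPM in Col-0 control. In whole seedlings, fewer cells of a type and less RNA per cell cannot be told apart, and the part of tissue makeup in the values below was not tested. Reads of 18S rRNA made up 0.573%, 0.422% and 0.0652% of the counts in camta6-5 NaCl replicates 1, 2 and 3. In the same order they were 0.0312%, 0.0744% and 0.0211% in Col-0 NaCl. They were 1.03%, 0.108% and 0.536% in camta6-5 control, and 0.508%, 0.0717% and 0.0343% in Col-0 control. Replicate 3 of camta6-5 NaCl thus differed from its group but lay within the range of Col-0 NaCl, which replicates 1 and 2 exceeded.

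Applied to each of the other groups in turn, the same rule found 503 high and 1221 low genes for Col-0 NaCl (3.59% and 8.73%), 6 high and 12 low genes for camta6-5 control (0.0429% and 0.0858%), and 7 high and 6 low genes for Col-0 control (0.05% and 0.0429%). The count for camta6-5 NaCl was therefore of the size found for the control groups, and the salt-treated wild type was the group in which most genes stood alone.

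**Figure D1:**
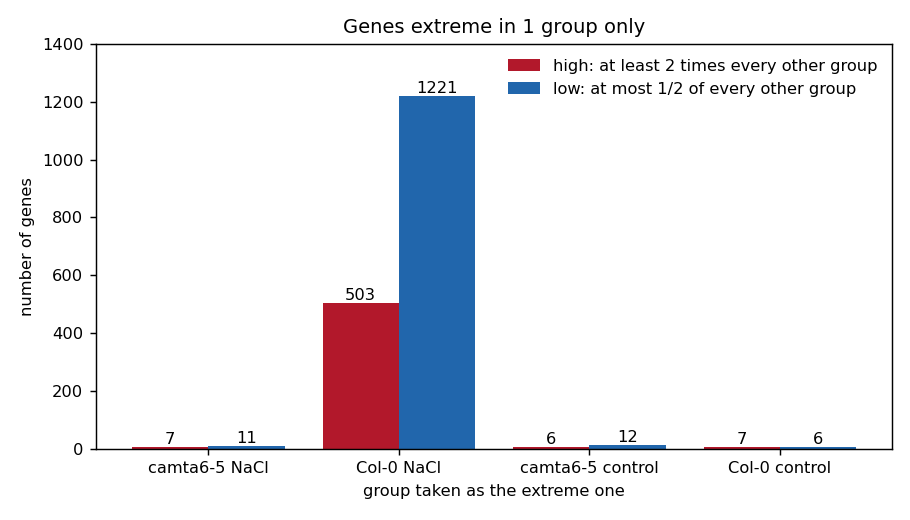
Number of genes (vertical axis) whose group mean was at least 2 times the highest (red) or at most 1/2 of the lowest (blue) of the other 3 group means, with each group in turn taken as the extreme one (horizontal axis). The bars for camta6-5 NaCl stand at 7 and 11 genes, and those for Col-0 NaCl at 503 and 1221.

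In the high set, 2 genes encode small cysteine-rich peptides of the kind that act against microbes. PDF2.1 (AT2G02120, chr2:538250-539055, plus strand, TAIR10) encodes a plant defensin. It had 212, 165 and 291 CPM in camta6-5 NaCl, 91.1, 109 and 87.9 CPM in Col-0 NaCl, 36.8, 51.3 and 30.1 CPM in camta6-5 control, and 25.8, 28.1 and 20.15 CPM in Col-0 control. All 3 camta6-5 NaCl libraries lay above the other 9, and all 3 Col-0 NaCl libraries lay above both control groups. Its mean of 223 ± 63.5 CPM in camta6-5 NaCl was 2.32 times that of 96.1 ± 11.6 CPM in Col-0 NaCl (SD, n = 3 each).

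AT2G15010 (chr2:6484379-6485154, plus strand) is annotated as a plant thionin, another family of membrane-active defence peptides. Its levels were 105, 75.1 and 126 CPM in camta6-5 NaCl, 38.1, 37.6 and 37.9 CPM in Col-0 NaCl, 33.5, 34.0 and 22.0 CPM in camta6-5 control, and 18.3, 18.1 and 11.7 CPM in Col-0 control. The order of the groups was the same as for PDF2.1, and the camta6-5 NaCl mean was 2.70 times that of Col-0 NaCl. In CPM per kilobase of transcript the means of camta6-5 NaCl were 381 for PDF2.1 and 145 for AT2G15010, against 165 and 53.8 in Col-0 NaCl, so PDF2.1 was the more abundant of the pair in both.

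The neighbouring defensin genes did not share this pattern. LCR69, also called PDF2.2, averaged 155 CPM in camta6-5 NaCl, 44.8 CPM in Col-0 NaCl, 165 CPM in camta6-5 control and 221 CPM in Col-0 control, and PDF2.3 averaged 36.8, 9.23, 65.9 and 64.9 CPM in the same order of groups. Both had their lowest mean in Col-0 NaCl, the group in which PDF2.1 had its second highest. Close relatives of the members were listed after the members were known. The thionin genes THI2.1, THI2.2 and AT1G66100 had no count in any library.

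YDK1 (AT4G37390, chr4:17579657-17582022, plus strand), also known as GH3.2, encodes an enzyme that joins the auxin indole-3-acetic acid to amino acids and so lowers the free hormone. It had 16.3, 17.7 and 17.98 CPM in camta6-5 NaCl, 7.58, 11.5 and 6.24 CPM in Col-0 NaCl, 5.07, 3.96 and 3.52 CPM in camta6-5 control, and 2.57, 3.54 and 1.998 CPM in Col-0 control. The camta6-5 NaCl libraries were the least spread of any high gene, at 17.3 ± 0.930 CPM (SD, n = 3), and the ratio to Col-0 NaCl of 2.05 was the closest to the limit. Its relative GH3.5, which does not meet the rule, averaged 18.3 CPM in camta6-5 NaCl, 1.63 CPM in Col-0 NaCl, 9.58 CPM in camta6-5 control and 11.2 CPM in Col-0 control. The relative GH3.6 averaged 3.99, 0.442, 5.90 and 6.11 CPM in that order of groups. GH3.1, GH3.3 and GH3.17 were scarce, with largest group means of 0.425, 1.12 and 1.60 CPM, none of them in camta6-5 NaCl. YDK1 shares 90.0% of 1812 aligned transcript bases with GH3.4, so the split of reads between this pair is uncertain.

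The 300 bases before YDK1 are shown because they hold the most matches to the 3 motif cores searched among the 18 genes. The cores were ACGTG, the centre of abscisic acid response elements and G-boxes, TGACG, bound by TGA-type factors, and CGCGT, part of the CAMTA element, each on both strands. Sequence is from the RefSeq release of TAIR10.1, read upstream of the outermost annotated start, and capitals mark the matches. For each window shown that start is the RefSeq one, which lies outside the gene coordinates given here. The window is chr4:17579318-17579617 on the plus strand.
YDK1: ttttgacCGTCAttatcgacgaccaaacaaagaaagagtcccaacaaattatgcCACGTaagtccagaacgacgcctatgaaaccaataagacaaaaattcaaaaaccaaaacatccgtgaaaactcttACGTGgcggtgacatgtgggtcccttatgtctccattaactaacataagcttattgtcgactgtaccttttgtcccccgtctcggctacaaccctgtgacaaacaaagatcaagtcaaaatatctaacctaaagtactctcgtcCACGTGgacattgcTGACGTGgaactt
It holds 5 matches to ACGTG, of which 2 fall in one palindromic CACGTG that is read on both strands. It also holds 2 to TGACG, one of them overlapping ACGTG near the RefSeq start.

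The remaining protein-coding high genes act in the cell wall and in protein breakdown. TBL38 (AT1G29050, chr1:10136230-10139208, minus strand) belongs to the TRICHOME BIREFRINGENCE-LIKE family, whose members set the acetylation of wall polysaccharides. It had 9.05, 6.30 and 9.50 CPM in camta6-5 NaCl, 1.18, 0.912 and 1.29 CPM in Col-0 NaCl, 3.72, 2.63 and 2.31 CPM in camta6-5 control, and 3.24, 2.49 and 1.45 CPM in Col-0 control. The camta6-5 NaCl libraries lay above all others and the Col-0 NaCl libraries below all others. At 2.87, its ratio to the nearest group mean was the largest of the high set, and its ratio to Col-0 NaCl was 7.36. TBL38 overlaps AT1G29040 on the opposite strand by 12 bases, and the kit did not mark strand. AT1G29040 had 12.8 to 13.5 CPM in camta6-5 NaCl, a range of 5.71 to 6.45 CPM in Col-0 NaCl, 14.0 to 15.8 CPM in camta6-5 control and 14.7 to 16.4 CPM in Col-0 control, so it was not highest in camta6-5 NaCl.

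APA2 (AT1G62290, chr1:23009911-23013529, minus strand) encodes a vacuolar aspartic protease with a saposin-like domain, a class known to process seed proteins. Its levels were 105, 66.97 and 126 CPM in camta6-5 NaCl, 56.6, 38.3 and 39.6 CPM in Col-0 NaCl, 33.1, 31.6 and 35.5 CPM in camta6-5 control, and 44.9, 37.3 and 55.0 CPM in Col-0 control. The lowest camta6-5 NaCl library still exceeded the highest of the others, and the ratio to the nearest mean, that of Col-0 control, was 2.18. Its relative APA1 averaged 761 CPM in camta6-5 NaCl and 862 CPM in Col-0 NaCl, against 359 CPM in camta6-5 control and 370.1 CPM in Col-0 control.

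CNI1 (AT5G27420, chr5:9684072-9685561, plus strand), also known as ATL31, encodes a RING ubiquitin ligase that sets the response of seedlings to the balance of carbon and nitrogen. It had 8.16, 6.53 and 25.4 CPM in camta6-5 NaCl, 4.28, 4.23 and 3.46 CPM in Col-0 NaCl, 4.89, 5.98 and 4.25 CPM in camta6-5 control, and 3.64, 4.54 and 5.29 CPM in Col-0 control. Replicate 3 carried much of this difference. With it left out the ratio to the nearest mean was 1.46, against 2.65 with all libraries. Its closest relative ATL6 averaged 53.7 CPM in camta6-5 NaCl and 72.0 CPM in Col-0 NaCl, with 30.8 CPM in camta6-5 control and 37.6 CPM in Col-0 control.

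AT1G15405 (chr1:5297875-5298166, minus strand) is a noncoding RNA gene of 292 bases with no assigned function in the annotation. It had 93.4, 142 and 53.9 CPM in camta6-5 NaCl, 16.8, 11.9 and 13.0 CPM in Col-0 NaCl, 47.8, 25.9 and 52.4 CPM in camta6-5 control, and 38.3, 41.2 and 28.9 CPM in Col-0 control. As for TBL38, camta6-5 NaCl was highest and Col-0 NaCl lowest, with no overlap of either with the other groups. It was the only high gene with its lowest camta6-5 NaCl library in replicate 3, which exceeded the highest camta6-5 control library by little. RefSeq places the gene inside a longer noncoding RNA on the same strand, AT1G05163, which is not in the table, so the counts may include reads of that transcript.

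**Figure D2:**
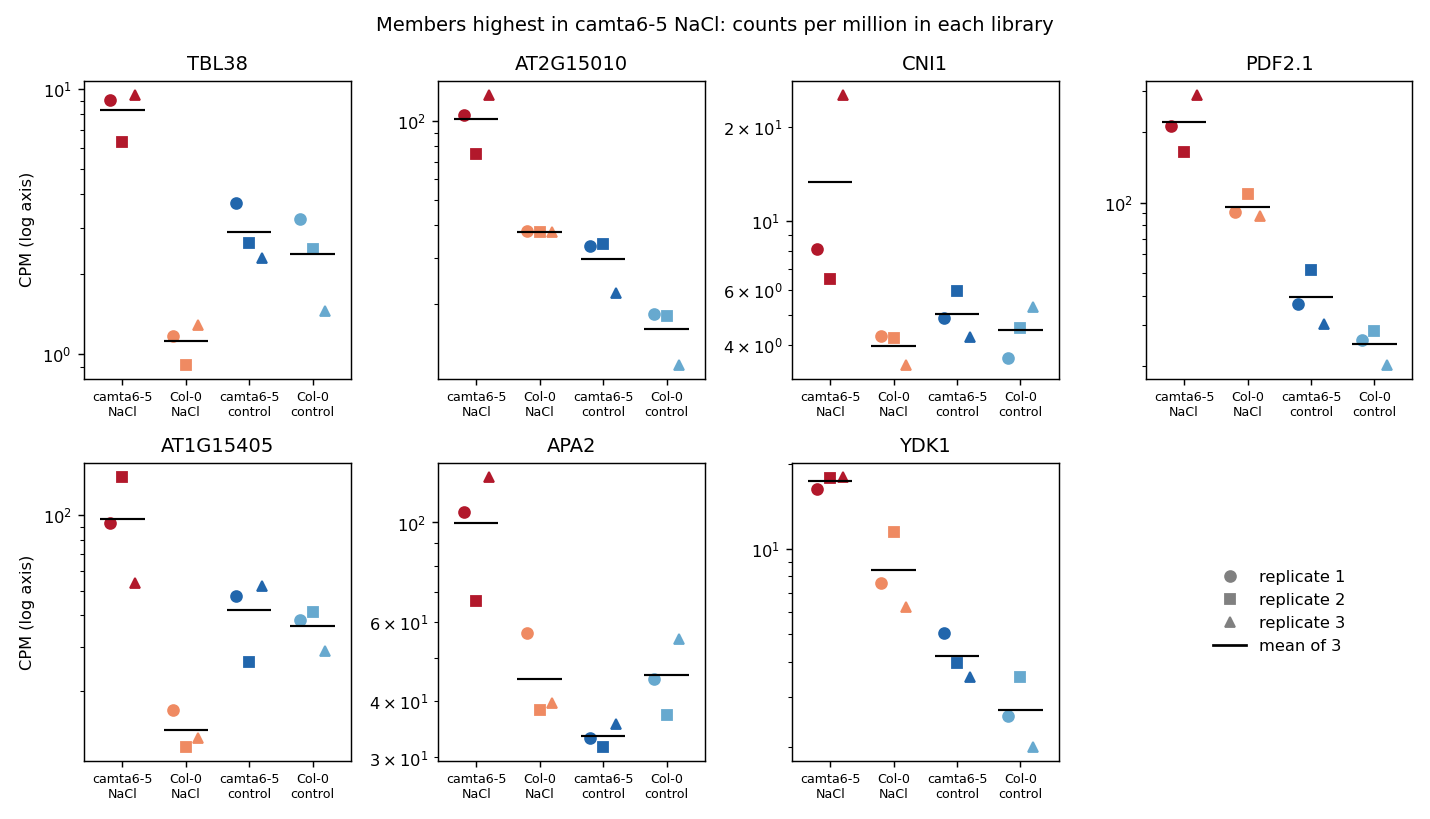
CPM (log axis, a separate scale in each panel) of the 7 high genes in each library, by group (horizontal axis); symbols mark the replicate number and black lines the group mean of 3 libraries. In every panel the 3 camta6-5 NaCl points lie above the other 9, and replicate 3 is the highest of them in 6 of 7 panels.

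All 3 camta6-5 NaCl libraries lay above the other 9 for 7 of 7 high genes and below them for 10 of 11 low genes. Over the 13992 genes such separation occurred for 5.2% and 2.83%, and the rule used these libraries. Replicate 3 was the highest camta6-5 NaCl library for 6 of the 7 high genes and replicate 2 the lowest for 5 of them. In the low set, replicates 1, 2 and 3 were the lowest library for 4, 2 and 5 genes and the highest for 4, 6 and 1.

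In the low set, enzymes of central metabolism included the pyruvate decarboxylase gene AT4G33070 (chr4:15952289-15954771, minus strand), known as PDC1, whose product makes acetaldehyde in ethanolic fermentation. Its levels were 15.8, 22.0 and 16.3 CPM in camta6-5 NaCl, 73.3, 89.6 and 66.2 CPM in Col-0 NaCl, 66.1, 70.8 and 71.1 CPM in camta6-5 control, and 59.6, 53.1 and 87.4 CPM in Col-0 control. The other 3 groups overlapped one another, and camta6-5 NaCl alone lay apart, at 18.03 ± 3.44 CPM (SD, n = 3), below the nearest mean by a ratio of 3.70. The paralogue PDC2 averaged 57.0 CPM in camta6-5 NaCl and 122 CPM in Col-0 NaCl, against 21.6 CPM in camta6-5 control and 21.4 CPM in Col-0 control, so it was lower in camta6-5 NaCl than in Col-0 NaCl but not than in the controls. The closest copy by sequence, AT5G01320, had a mean of 0.00977 CPM in Col-0 NaCl and no count in the other groups.

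AT4G33070 was the only one of the 18 genes found in any of the 18 gene lists examined. Its list, 27 genes induced by low oxygen, held 23 genes that reached 5 CPM, and camta6-5 NaCl had the lowest group mean for 8 of these (34.8%) and the highest for 1, against 11.9% and 14.7% of all 14178 genes. AT4G33070, which the rule chose for being lowest there, is 1 of these 8, so the share in part restates the choice. Shares varied between lists, some of them short. In the list of the mitochondrial dysfunction response camta6-5 NaCl was lowest for 3 of 8 genes (37.5%). In that of the unfolded protein response it was lowest for 0 of 12. These shares use the camta6-5 NaCl means that the rule ranked, and they were not tested. ADH1, the alcohol dehydrogenase that follows pyruvate decarboxylase, averaged 46.2 CPM in camta6-5 NaCl and 76.0 CPM in Col-0 NaCl, with 35.9 CPM in camta6-5 control and 35.4 CPM in Col-0 control. In salt-treated against control Col-0, 6 genes of the low-oxygen list rose and 17 fell of 25 tested by edgeR. Of all genes, 37.9% were higher and 39.6% lower. The median log2 fold change of that list was -1.03, against -0.01 over all genes tested.

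ASP2 (AT5G19550, chr5:6598017-6601819, plus strand) encodes the cytosolic aspartate aminotransferase, which links aspartate to the citric acid cycle. It was the most abundant low gene per kilobase of transcript in every group mean. Its counts came to 105, 117 and 102 CPM in camta6-5 NaCl, 225, 288 and 227 CPM in Col-0 NaCl, 218, 232 and 271 CPM in camta6-5 control, and 233, 189.8 and 327 CPM in Col-0 control. The camta6-5 NaCl level was lower by a ratio of 2.23 to the nearest group. The mitochondrial isoform ASP1 had another order, with 317 CPM in camta6-5 NaCl, 223 CPM in Col-0 NaCl, 757 CPM in camta6-5 control and 716 CPM in Col-0 control.

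TPS06 (AT1G70080, chr1:26394669-26397565, minus strand) is a terpene synthase gene and had the largest ratio of all 18 genes. It had 0.747, 0.568 and 0.407 CPM in camta6-5 NaCl, 2.84, 5.75 and 3.78 CPM in Col-0 NaCl, 3.66, 3.62 and 3.69 CPM in camta6-5 control, and 4.54, 6.83 and 5.25 CPM in Col-0 control. These camta6-5 NaCl values are 26, 20 and 12 counts. The nearest group mean, that of camta6-5 control, was 6.37 times the camta6-5 NaCl mean, and the ratio of pooled counts was 6.27 with a 95% exact interval of 4.74 to 8.43 that covers counting error only.

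A phototropism gene, a cryptochrome gene and a relative of clock genes also stood in the low set. RPT2 (AT2G30520, chr2:13002742-13005600, minus strand) encodes a partner of the blue-light receptor phototropin in phototropism. It had 0.345, 0.312 and 0.441 CPM in camta6-5 NaCl, 1.09, 1.13 and 1.08 CPM in Col-0 NaCl, 7.04, 4.68 and 17.9 CPM in camta6-5 control, and 7.76, 6.52 and 19.3 CPM in Col-0 control. Both salt groups were far below both control groups, and camta6-5 NaCl was below Col-0 NaCl by a ratio of 3.01, on 36 against 112 pooled counts (95% exact interval 2.07 to 4.56). Its homologue NPH3 differed in order, with 9.81 CPM in camta6-5 NaCl, 3.05 CPM in Col-0 NaCl, 14.5 CPM in camta6-5 control and 13.4 CPM in Col-0 control.

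CRY3 (AT5G24850, chr5:8535282-8538107, minus strand) encodes a cryptochrome of the DASH type, which repairs ultraviolet damage in organelle DNA. Its levels were 4.51, 5.33 and 4.95 CPM in camta6-5 NaCl, 10.2, 12.4 and 9.87 CPM in Col-0 NaCl, 11.1, 11.02 and 13.4 CPM in camta6-5 control, and 12.02, 11.7 and 14.0 CPM in Col-0 control. The 9 libraries outside camta6-5 NaCl covered a narrow range, and camta6-5 NaCl was lower by a ratio of 2.196. The photoreceptor genes CRY1 and CRY2 averaged 31.5 and 78.8 CPM in camta6-5 NaCl, 34.4 and 112 CPM in Col-0 NaCl, 40.1 and 60.9 CPM in camta6-5 control, and 45.6 and 64.2 CPM in Col-0 control.

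RVE1 (AT5G17300, chr5:5690227-5692902, minus strand) encodes a MYB-like factor of the morning phase that acts on auxin levels and on seed dormancy. It had 2.01, 2.13 and 1.49 CPM in camta6-5 NaCl, 5.94, 6.54 and 4.63 CPM in Col-0 NaCl, 5.78, 3.26 and 3.19 CPM in camta6-5 control, and 5.33, 5.22 and 5.83 CPM in Col-0 control. The ratio to the nearest mean was 2.17 but 1.72 without replicate 1 of camta6-5 control. RefSeq places another transcript, AT5G17305, across part of this gene on the opposite strand, and it is not in the table. The related clock gene CCA1 averaged 7.64 CPM in camta6-5 NaCl, 16.9 CPM in Col-0 NaCl, 12.5 CPM in camta6-5 control and 18.3 CPM in Col-0 control. LHY averaged 13.5, 18.8, 27.5 and 34.3 CPM in that order of groups. Both were lowest in camta6-5 NaCl without reaching the limit. RVE2 was highest in Col-0 NaCl, at 59.9 CPM, against 12.6 CPM in camta6-5 NaCl, 6.30 CPM in camta6-5 control and 8.95 CPM in Col-0 control. EPR1 averaged 12.6 CPM in camta6-5 NaCl, 6.53 CPM in Col-0 NaCl, 15.7 CPM in camta6-5 control and 15.4 CPM in Col-0 control. RVE8 averaged 16.2, 18.7, 5.96 and 5.98 CPM in that order of groups. RVE2, EPR1 and RVE8 were thus not lowest in camta6-5 NaCl.

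The window before RVE1 is shown because it holds a complete G-box, CACGTG, in a gene that was low in camta6-5 NaCl, as the YDK1 window does in a gene that was high. The windows of CNI1 in the high set and CRY3 in the low set, not shown, also hold a CACGTG. It lies at chr5:5692993-5693292, read on the minus strand, with matches to ACGTG in capitals.
RVE1: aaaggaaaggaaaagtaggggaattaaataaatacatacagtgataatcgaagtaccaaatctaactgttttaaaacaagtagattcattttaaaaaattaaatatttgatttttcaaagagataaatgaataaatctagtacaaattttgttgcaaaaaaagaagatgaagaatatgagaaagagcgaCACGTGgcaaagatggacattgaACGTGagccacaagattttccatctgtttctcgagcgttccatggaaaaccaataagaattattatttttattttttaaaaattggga
The first G-box base lay 111 bases before the RefSeq start, which is itself upstream of the gene coordinates given above.

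Proteins known for stress protection made up a further part. ERD14 (AT1G76180, chr1:28586676-28587931, minus strand) encodes a dehydrin, a disordered protein that protects others during water loss. It had 14.5, 12.9 and 13.9 CPM in camta6-5 NaCl, 51.1, 54.8 and 41.5 CPM in Col-0 NaCl, 35.8, 24.3 and 33.0 CPM in camta6-5 control, and 34.1, 42.4 and 53.8 CPM in Col-0 control. The camta6-5 NaCl libraries were tightly grouped, at 13.8 ± 0.785 CPM (SD, n = 3), and below the nearest group by a ratio of 2.26. The dehydrin genes COR47 and LTI29, also called ERD10, averaged 10.8 and 3.57 CPM in camta6-5 NaCl, 9.60 and 1.77 CPM in Col-0 NaCl, 14.6 and 9.11 CPM in camta6-5 control, and 16.5 and 8.82 CPM in Col-0 control, so neither was lowest in camta6-5 NaCl.

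RD21 (AT1G47128, chr1:17282825-17285670, minus strand) encodes a papain-like cysteine protease with a granulin domain that was first known as a drought-responsive gene. Its levels were 6.64, 5.70 and 4.44 CPM in camta6-5 NaCl, 12.5, 18.21 and 15.1 CPM in Col-0 NaCl, 10.7, 8.58 and 20.8 CPM in camta6-5 control, and 15.1, 12.7 and 23.8 CPM in Col-0 control. The spread within the control groups was wide, and the ratio of 2.39 was 1.72 without replicate 3 of camta6-5 control. The closest relative AT5G43060 averaged 2.33 CPM in camta6-5 NaCl, 0.786 CPM in Col-0 NaCl, 13.7 CPM in camta6-5 control and 12.1 CPM in Col-0 control.

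HSP17.6B (AT2G29500, chr2:12633091-12633805, minus strand) encodes a small heat shock protein, a chaperone that holds unfolded proteins. It had 18.04, 6.72 and 5.84 CPM in camta6-5 NaCl, 18.5, 29.4 and 16.4 CPM in Col-0 NaCl, 52.2, 40.9 and 8.99 CPM in camta6-5 control, and 14.5, 34.3 and 64.1 CPM in Col-0 control. It was the only gene of the 18 whose camta6-5 NaCl libraries overlapped those of each other group, and its ratio of 2.0998 ran between 1.71 and 3.41 as single libraries were left out. It was also the only one with a match to CGCGT, in the following window (chr2:12634121-12634420, minus strand), which is shown because that core is part of the element CAMTA factors are known to bind.
HSP17.6B: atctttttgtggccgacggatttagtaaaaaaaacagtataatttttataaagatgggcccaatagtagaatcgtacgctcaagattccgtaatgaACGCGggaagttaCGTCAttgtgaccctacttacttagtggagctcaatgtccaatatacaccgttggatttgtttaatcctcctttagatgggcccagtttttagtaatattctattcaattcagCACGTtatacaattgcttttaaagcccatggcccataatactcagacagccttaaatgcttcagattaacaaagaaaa
The CGCGT match, read here as ACGCG on the printed strand, began 204 bases before the RefSeq start. That start is itself upstream of the gene coordinates given above.

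Genes outside these groups completed the low set. AT2G45180 (chr2:18626320-18626997, plus strand), annotated as a protein of the lipid-transfer and seed storage albumin superfamily, had 0.0287, 0.114 and 0.0679 CPM in camta6-5 NaCl, 0.143, 0.608 and 0.293 CPM in Col-0 NaCl, 16.4, 21.8 and 57.0 CPM in camta6-5 control, and 27.4, 24.5 and 73.8 CPM in Col-0 control. It was nearly silent in both salt groups. Its ratio of 4.97 rests on 7 pooled counts in camta6-5 NaCl and 35 in Col-0 NaCl, and the 95% exact interval of the pooled ratio ran between 2.14 and 13.0. With single libraries left out the ratio of means ran between 3.12, without Col-0 NaCl replicate 2, and 7.21.

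AT1G76520 (chr1:28715078-28717416, plus strand) encodes a protein of the auxin efflux carrier family and is known as PILS3, a class that holds auxin at the endoplasmic reticulum. It had 8.22, 10.8 and 10.5 CPM in camta6-5 NaCl, 23.1, 34.8 and 23.1 CPM in Col-0 NaCl, 18.22, 21.0 and 20.8 CPM in camta6-5 control, and 23.0, 26.9 and 28.1 CPM in Col-0 control. The camta6-5 NaCl libraries lay below the other 9 with a ratio of 2.04, the closest of the low set to the limit.

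**Figure D3:**
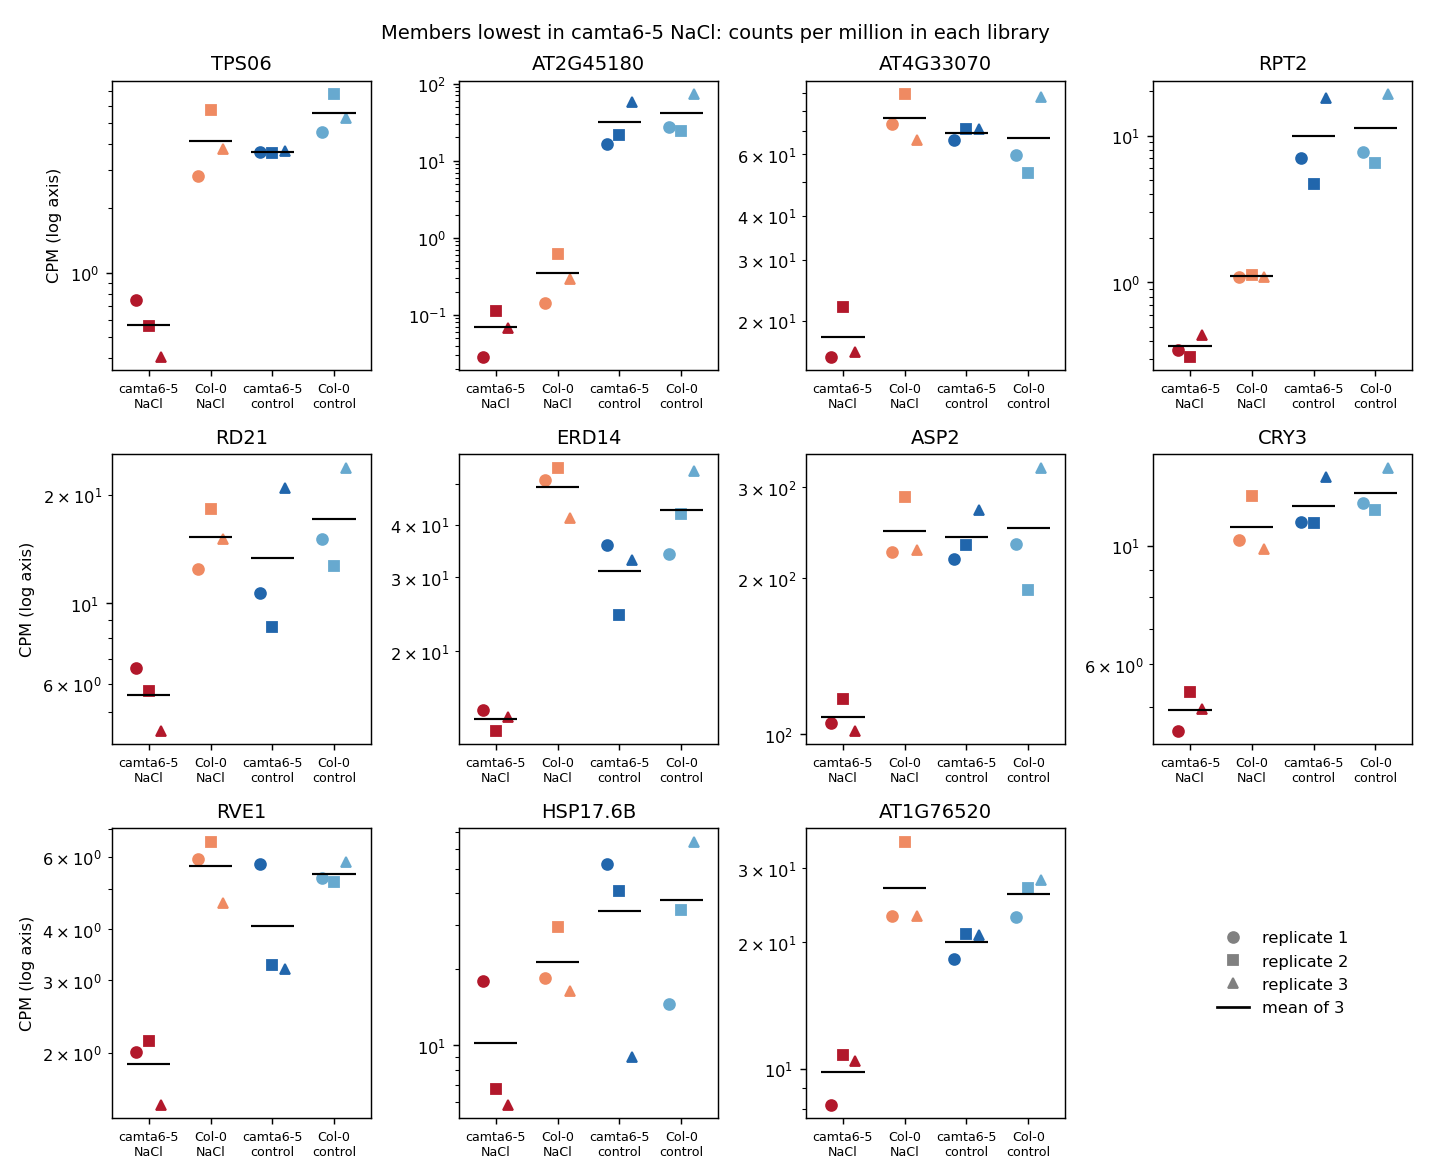
CPM (log axis, a separate scale in each panel) of the 11 low genes in each library, by group (horizontal axis); symbols mark the replicate number and black lines the group mean of 3 libraries. The camta6-5 NaCl points lie below the other 9 in 10 of 11 panels, HSP17.6B being the exception, and RPT2 and AT2G45180 are low in both salt groups.

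The genes nearest the limit differed little on its 2 sides. Just inside were YDK1 (ratio 2.05) and APA2 (2.18) in the high set and AT1G76520 (2.04) and HSP17.6B (2.0998) in the low set. Just outside were AT2G38980 (1.98) and AT1G14890 (1.97) on the high side, and GRP-3 and AT1G12200 (1.98 each) on the low side. The nearest other group was Col-0 NaCl for 3 high and 4 low genes, camta6-5 control for 3 and 6, and Col-0 control for 1 and 1.

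Comparisons without the camta6-5 NaCl libraries were tested with edgeR over all 18515 genes that passed a filter on low counts, which all 18 genes passed. The means of these groups also stood in the rule, as the values that camta6-5 NaCl had to exceed or stay below and as values that could reach the 5 CPM minimum. Between salt-treated and control Col-0, 77.5% of all genes differed at an adjusted p under 0.05, with 37.9% higher and 39.6% lower.

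Of the 7 high genes, 3 were higher in salt-treated Col-0 than in control Col-0, and 2 were lower. PDF2.1 rose by a log2 fold change of 1.94 ± 0.229 (SE; edgeR adjusted p = 4.05e-06), YDK1 by 1.62 ± 0.237 (edgeR adjusted p = 2.97e-05) and AT2G15010 by 1.21 ± 0.216 (edgeR adjusted p = 0.000169). Between camta6-5 NaCl and camta6-5 control, where the rule fixed the direction, the log2 differences were 2.44 for PDF2.1, 2.001 for YDK1 and 1.72 for AT2G15010. AT1G15405 fell, with a log2 fold change of -1.40 ± 0.315 (SE; edgeR adjusted p = 0.00111), and TBL38 fell, with -1.12 ± 0.297 (edgeR adjusted p = 0.00364). In camta6-5, where the rule again fixed the direction, the salt-treated libraries of both lay above their control, by 1.17 ± 0.301 and 1.47 ± 0.257 on the log2 scale. TBL38 reached the 5 CPM minimum through camta6-5 NaCl alone. Its fall in Col-0 was between low means, 1.13 CPM in Col-0 NaCl and 2.39 CPM in Col-0 control. APA2 (-0.06 ± 0.206, edgeR adjusted p = 0.815) and CNI1 (-0.19 ± 0.415, edgeR adjusted p = 0.684) did not pass the test.

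Of the 11 low genes, 2 were lower in salt-treated Col-0 and none was higher. AT2G45180 fell, with a log2 fold change of -6.93 ± 0.705 (SE; edgeR adjusted p = 9.43e-07), and RPT2 fell, with -3.36 ± 0.517 (edgeR adjusted p = 4.60e-05). Both had reached the 5 CPM minimum through the control groups alone, so these falls belong in part to how the genes were chosen. The other 9 did not pass the test, with log2 fold changes from -0.83 for HSP17.6B to 0.17 for AT4G33070. The median log2 fold change was -0.19 over the low set and -0.06 over the high set, against -0.01 over all genes tested. The libraries of salt-treated Col-0 lay wholly above those of control Col-0 for 3 of 7 high genes and wholly below for 2. They lay wholly below for 2 of 11 low genes, and the other 9 overlapped. Among all genes tested, 40.5% had salt wholly above and 40% wholly below.

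Between camta6-5 control and Col-0 control, 0.216% of all genes passed the test (0.0864% higher and 0.13% lower), and none of the 18 genes did. That test had no replicate block. At an unadjusted p under 0.05, 3 high and 2 low genes passed, against 2037 of all 18515. AT2G15010 had the largest difference among the 18, with a log2 fold change of 0.96 ± 0.216 (SE; edgeR adjusted p = 0.125). With the replicate number as a block and only these 2 groups in the fit it passed, at 0.94 (edgeR adjusted p = 0.0176), and over all alternatives its adjusted p ran between 0.00172 and 0.377. Median log2 fold changes were 0.32 over the high set and -0.32 over the low set, against 0.01 over all genes tested. The libraries of camta6-5 control lay wholly above those of Col-0 control for AT2G15010 and PDF2.1 (3.14% of all genes). They lay wholly below them for APA2, TPS06 and AT1G76520 (12.9% of all genes). TPS06 reached the 5 CPM minimum through Col-0 control alone (mean 5.54 CPM). Its lower level in camta6-5 control therefore belongs in part to how it was chosen.

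**Figure D4:**
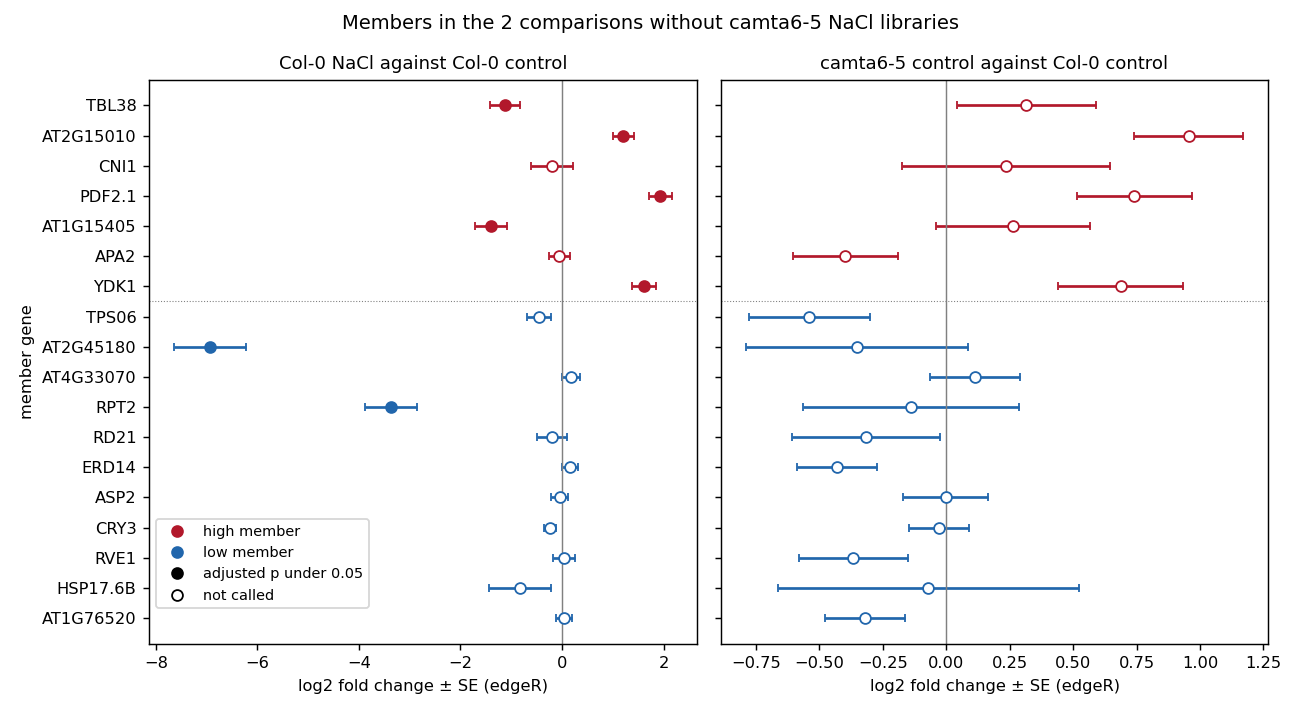
Log2 fold change ± SE from edgeR (horizontal axis, a separate scale in each panel) of the 18 genes, high set in red and low set in blue, for Col-0 NaCl against Col-0 control (left) and camta6-5 control against Col-0 control (right). Filled points have an adjusted p under 0.05: 7 genes on the left and none on the right.

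As single libraries were left out in turn, 2 of 7 high genes (TBL38 and AT2G15010) and 5 of 11 low genes met the rule in all 12 settings. These low genes were AT2G45180, AT4G33070, RPT2, ERD14 and CRY3. TPS06 kept a ratio above 2 throughout but fell under the 5 CPM minimum without Col-0 control replicate 2. Without camta6-5 NaCl replicate 3, the high set held 4 genes and lost APA2, CNI1 and PDF2.1, whose ratio was then 1.96. Without replicate 2 it held 17 genes, and without replicate 1 it held 10. Without Col-0 NaCl replicate 1 it held 11 and lost YDK1. The low set held 16, 17 and 13 genes without replicates 3, 2 and 1.

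**Figure D5:**
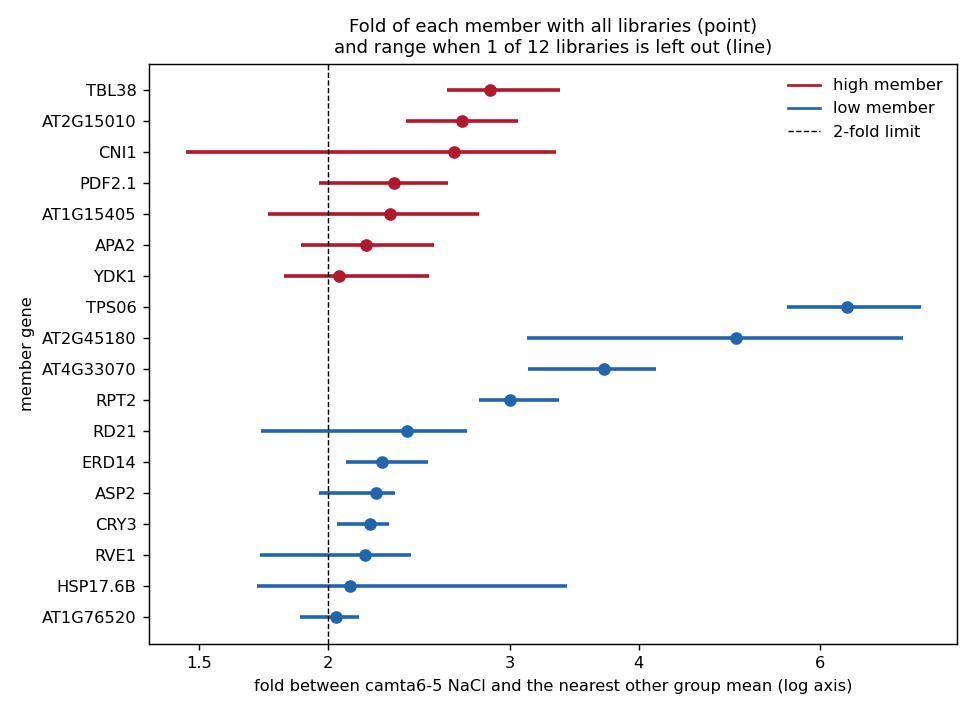
Ratio between the camta6-5 NaCl mean and the nearest other group mean (log axis; other mean over camta6-5 NaCl mean for low genes) with all libraries (points) and its range as each of 12 libraries was left out (lines), for the 18 genes. The line of CNI1 reaches down to 1.46. Those of TBL38, AT2G15010, TPS06, AT2G45180, AT4G33070, RPT2, ERD14 and CRY3 stay above the dashed limit of 2. The lines show the ratio only and not the 5 CPM minimum.

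No 2 of the 18 genes were neighbours, and the closest pair, ERD14 and AT1G76520 on chromosome 1, lay 127146 bases and 35 genes apart. The ACGTG core was found before 3 of 7 high genes (CNI1, APA2 and YDK1) and 5 of 11 low genes, against 25.9% of 14148 nuclear genes that reached 5 CPM. TGACG was found before 2 of 7 high and 5 of 11 low genes, against 22.4%, and CGCGT before 0 of 7 high and 1 of 11 low genes, against 8.96%. A match describes letters in a window of 300 bases and not a bound site.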

How the data were processed

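The 12 libraries were sequenced on an Illumina HiSeq after TruSeq preparation, a kit that does not mark strand. The deposited table holds raw read counts per gene, made by the authors and not normalized. The submitters' processing notes name the build TAIR10 and, with no role or order, DESeq2 1.10.0, HTSeq 0.6.1, cutadapt 1.9, Bowtie2 2.2.6 and TopHat2 2.1.0; settings, and so the treatment of reads on more than 1 gene, are not given in the sources used here.

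Group means of CPM over column totals chose the 18 genes. All 18 were named by a rule on ratio, abundance or closeness to the limit, apart from relatives, and members, motifs, relatives and the 18 lists (298 genes) were chosen with earlier results of these data known. Tests used edgeR 4.0.16 in R 4.3.3: filterByExpr (minimum count 10, minimum total 15) kept 18515 genes, TMM factors scaled libraries, and a quasi-likelihood fit of 1 mean per group to all 12 libraries (8 residual degrees of freedom) gave two-sided tests with Benjamini-Hochberg adjustment over all genes. The SE is the estimate divided by the root of its F statistic. Similar transcripts were found with BLAST 2.17.0.

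Replicate pairs of a group differed by more than sampling noise (chi-square per degree of freedom of at least 10.6), so no library was counted as a repeat. Deviations of same-numbered libraries of camta6-5 control and Col-0 control correlated across genes at 0.225, 0.179 and 0.270, so numbers may pair these groups, judged from the data alone. The main test used no replicate block, and fits with the block were alternatives. Of the table's genes, 32835 were found in RefSeq TAIR10.1, where 32.3% had the same start and end. Alternatives were other scalings (DESeq2 1.42.0 among them), limits, filters, fits and leaving out each library. A count of 0 or few counts limits precision, and counting intervals cover counting error only.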

Additional observations from a re-analysis of the deposited data

Results flagged for a closer look

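For 2 high genes every salt-treated camta6-5 library lay above every camta6-5 control library, while every salt-treated Col-0 library lay below every Col-0 control library. TBL38 had a log2 NaCl effect of 1.47 in camta6-5 and -1.12 in Col-0. It reached the 5 CPM minimum through camta6-5 NaCl alone (mean 8.28 CPM). AT1G15405 had a log2 NaCl effect of 1.17 in camta6-5 and -1.40 in Col-0. The difference between the genotypes was not tested, because the rule that chose the genes ranked the same means.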

How the results depend on the processing

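The sets kept all 7 high and 11 low genes with TMM scaling, and DESeq2 size factors gave 7 high and 13 low genes. A 3-fold limit left 0 high and 4 low genes, a minimum of 1 CPM gave 18 and 44, and group medians gave 8 and 16, of which 5 and 8 were shared with the sets described. Without the 5 libraries richest in 18S rRNA, an alternative chosen after seeing the data, 46 high and 22 low genes met the rule. Of these, 6 and 9 were shared. That setting kept only replicate 3 of camta6-5 NaCl and replicate 2 of camta6-5 control, so each of those means was a single library. As single libraries were left out, the sets held 4 to 17 high and 10 to 17 low genes.

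For salt-treated against control Col-0, leaving out single libraries gave 3 high genes higher and 2 lower throughout, 0 to 2 low genes higher and 2 to 4 lower. AT4G33070 (0.44) and ERD14 (0.36) were higher without Col-0 control replicate 3, and TPS06 (-0.76) and CRY3 (-0.34) lower without Col-0 NaCl replicate 2. TPS06 reached the 5 CPM minimum through Col-0 control alone, so its fall belongs in part to how it was chosen. HSP17.6B (-1.19) was lower with the 5 rRNA-rich libraries left out. Same-numbered libraries here correlated at -0.0873, -0.0650 and -0.0857, which gave no sign of pairing by number. The labels do not say whether such libraries shared a plate or seed lot. In this comparison the replicate block changed no call of the 18 genes.

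For camta6-5 control against Col-0 control, all genes called higher and lower numbered 16 and 24. They were 33 and 42 without a filter, 5 and 6 with only these 2 groups in the fit, and 72 and 85 with DESeq2. With single libraries left out they were 8 to 17 and 16 to 30. Leaving out replicate 1 of either group gave 8 higher, and leaving out replicate 3 of Col-0 control gave 10. Without the 5 rRNA-rich libraries camta6-5 control kept only replicate 2, so no calls are given for that setting. With the replicate block and only the 2 groups, 11 genes were called lower. The high genes called higher were 1 without a filter, 1 with DESeq2, 1 with that block and 0 to 1 with single libraries left out (1 without camta6-5 control replicate 3), AT2G15010 in each case, and the block changed no other call of the 18 genes. The causes were not tested.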
